A study of Mus musculus with 73 samples.

Results

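The stroma of the small intestine holds a dense vascular bed, and 9 genes used to recognise it were followed here along the crypt-villus axis of the mouse jejunum. The genes were listed by name: *Pecam1*, *Cdh5*, *Plvap*, *Esam*, *Kdr*, *Tek*, *Fabp4*, *Podxl* and *Lyve1*, 9 of the 20882 genes with values in the laser capture microdissection (LCM) table. Their level was read in 4 stromal zones, and their unique molecular identifiers (UMIs, tags that count molecules once) were read in single wells sorted by 9 gates. The isolated epithelium of 4 mock-treated mice served as a background.

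The LCM samples came from C57BL/6 male mice aged 3 months per the labels. Crypt stroma was captured in 3 mice (6 sections) and villus bottom, villus center and villus tip in 5 mice (8, 7 and 8 sections). Mice 1 to 3 gave 2 sequential sections a zone, except 1 in villus center of mouse 3, and these were averaged, while mice 4 and 5 gave 1 section a zone and no crypt. Each section pooled several villi, and its depth is unknown because TPM (transcripts of 1000000) keep no read number. The sorted wells came from 8 mice, named A to H here, of the same strain, sex and age. The gates were grouped as PDGFRa singlets, PDGFRa Big, PDGFRa Small, EPCAM PDGFRa doublets, NT5E PDGFRa doublets, CD31, CD45 singlets, EPCAM singlets and TripleNeg. PDGFRa singlets here include plates of mouse B labelled Pop3 or Pop6 and plates of mouse F labelled Pop3. PDGFRa marks telocytes and other mesenchymal cells, CD45 immune cells, EPCAM epithelium and CD31 endothelium. CD31 is the protein of *Pecam1*, and that gate was 1 plate of 1 mouse. The mock epithelium came from Lgr5(GFP-ires-DTR/+) mice aged 4 months that carried the diphtheria toxin receptor and received saline in place of toxin 48 h before collection.

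Each villus carries a net of fenestrated capillaries under its epithelium and a central lymphatic vessel, the lacteal, which takes up dietary fat. Endothelial cells seal their junctions with adhesion proteins, sense vascular endothelial growth factor (VEGF) and angiopoietins through receptor kinases, and let solutes pass through openings closed by a thin diaphragm. Lymphatic endothelium carries a receptor for hyaluronan that blood endothelium mostly lacks. Some of these genes are also used by other cells: *Pecam1* is found on platelets and leukocytes, *Fabp4* in adipocytes and *Lyve1* in some macrophages.

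All 9 genes lie on GRCm38 (GENCODE M21) as protein-coding genes. The junction genes are *Pecam1* (chr11:106654217-106750628, minus strand), *Cdh5* (chr8:104101625-104144511, plus strand) and *Esam* (chr9:37528078-37538319, plus strand). The receptor kinases are *Kdr* (chr5:75932827-75978458, minus strand) and *Tek* (chr4:94739289-94874976, plus strand). The remaining genes are *Plvap* (chr8:71497765-71511752, minus strand), *Fabp4* (chr3:10204088-10208576, minus strand), *Podxl* (chr6:31519488-31563981, minus strand) and *Lyve1* (chr7:110850607-110863239, minus strand). *Plvap* overlaps *Gtpbp3* and *Cdh5* overlaps *Gm29682*, both on the other strand. The overlap is of whole gene spans, and whether it affects the reads was not tested.

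*Pecam1*, the adhesion molecule of endothelial junctions, had by far the highest level of the 9 genes in every zone. LCM levels are given in ppm (parts of 1000000), the TPM after genes high in enterocytes were removed and the rest rescaled, which is a level per transcript length. The mean was 1942 ± 1320 ppm in the crypt (SD, n = 3), 1632 ± 607 in villus bottom, 2009 ± 1154 in villus center and 2021 ± 1276 in villus tip (SD, n = 5 each). The crypt values were 986, 3448 and 1391 ppm in mice 1 to 3. In villus bottom mice 1 to 5 stood at 1025, 2400, 1109, 1518 and 2109 ppm, and in villus tip at 584, 4011, 1575, 1591 and 2345 ppm. Mouse 2 was high and mouse 1 low in both villus zones, and the zones overlapped throughout. Its zone means lay at the 99.5th to 99.6th percentile of genes, and no section listed it at 0. *Pecam1* made up 63.1% to 96.9% of the summed ppm of the 9 genes over the 18 mouse and zone values, with a median of 87.2%.

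The other genes were much lower and spread more between mice. The coefficient of variation over the 18 values was 53.2% for *Pecam1* and 76.4% for *Plvap*, and between 118% and 205% for the remaining genes. *Tek* was listed at 0 in 12 of 29 sections, *Esam* and *Lyve1* in 9 each, *Podxl* in 6, *Cdh5* and *Kdr* in 3 each and *Fabp4* in 1, while *Pecam1* and *Plvap* never were. Sections cut from 1 mouse and zone differed widely as well. Over 11 pairs the median difference on the log2 scale was 2.31 for *Fabp4*, 2.27 for *Podxl* and 1.81 for *Plvap*, beside 1.24 over all genes tested. It was 1.20 for *Kdr*, 1.13 for *Cdh5* and for *Lyve1*, 1.03 for *Pecam1*, 0.90 for *Esam* and 0.76 for *Tek*. Levels of the 9 genes were only loosely related to each other. Over the 36 pairs of genes, Pearson correlations of their log2 values ran from -0.48 to 0.67 with a median of 0.12, over 18 values that share mice and libraries.

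**Figure D1:**
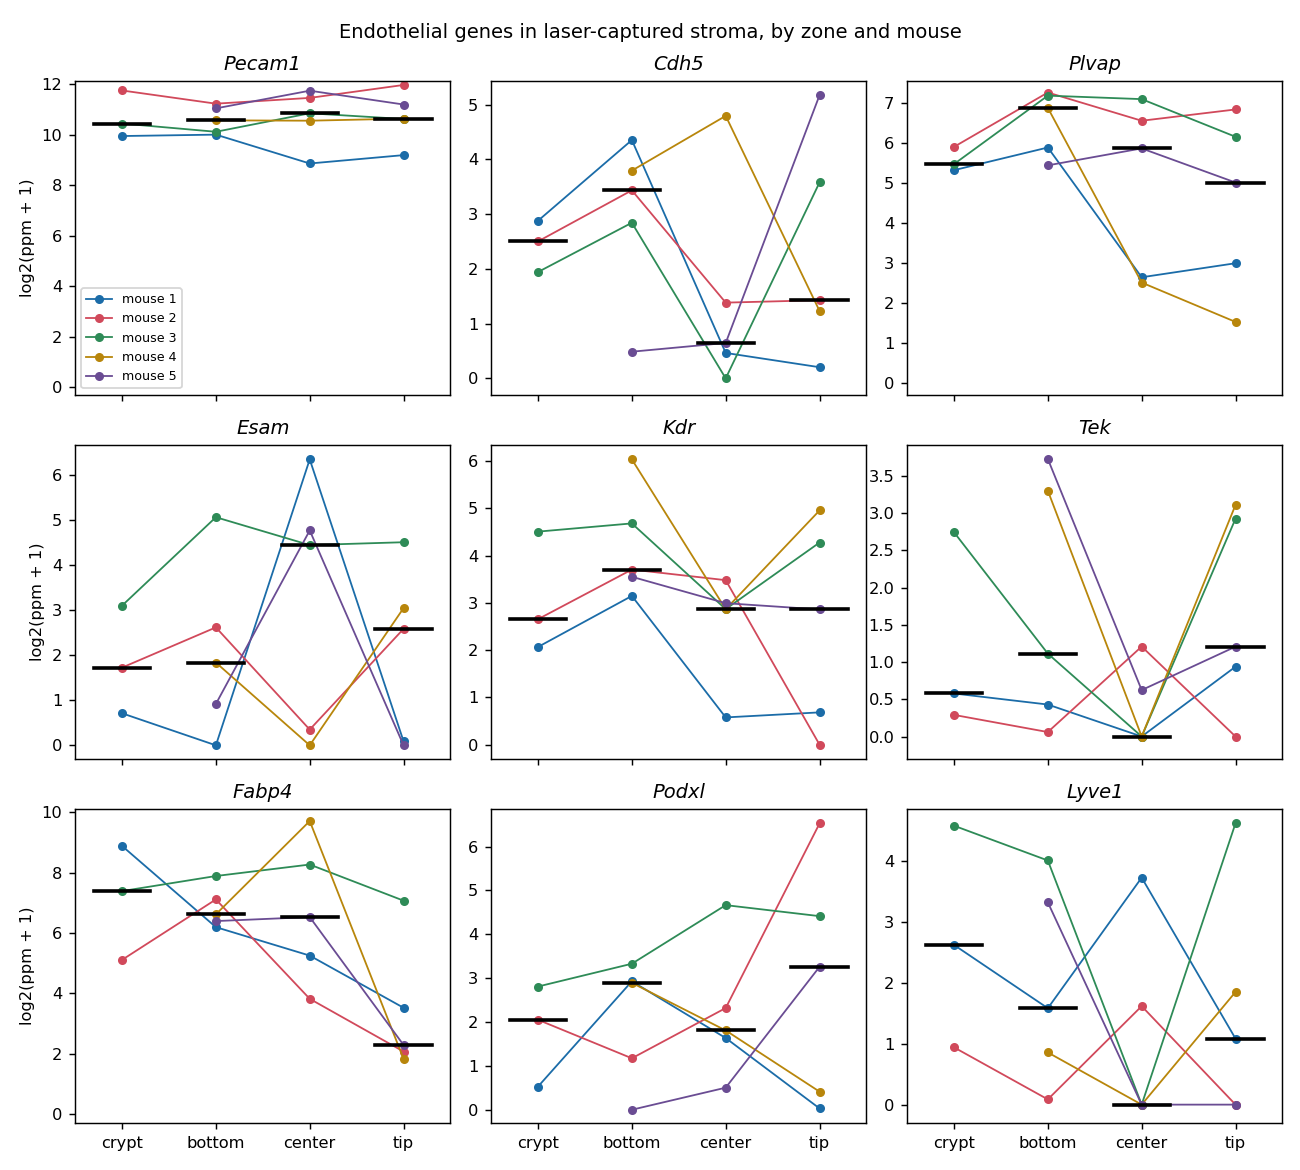
Level of each of the 9 endothelial genes as log2(ppm + 1) (vertical axis) in the 4 LCM zones (horizontal axis). Each colored line is 1 mouse, and the black bars are zone medians over 3 mice (crypt) or 5 mice (villus zones). *Fabp4* was below its villus bottom value at the tip in every mouse, while *Pecam1* stayed between 464 and 4011 ppm.

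The first question was whether the vascular genes differ between the villus base and the villus tip. *Fabp4*, which binds fatty acids in capillary endothelium and fat cells, showed the largest difference of the 9. Its level in villus bottom was 72.2, 137, 236, 97.2 and 83.1 ppm in mice 1 to 5. In villus tip the same mice had 10.5, 3.19, 134, 2.54 and 3.87 ppm. The tip was lower in 5 of 5 mice, and only mouse 3 had a tip value inside the range of villus bottom. The log2 difference, tip minus bottom, was -3.49 with an SE of 0.93 and a limma adjusted p of 0.378, which did not pass the threshold of 0.05. The two-sided exact sign-flip permutation test over 5 mice gave p = 0.0625, the smallest it can give. In captured tissue, fewer endothelial cells and less RNA per cell cannot be told apart.

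Villus center held 37.1, 13.1, 308, 838 and 91.3 ppm in mice 1 to 5, overlapping both villus bottom and the crypt (472, 33.5 and 167 ppm in mice 1 to 3). The tip lay below the center in 5 of 5 mice and below the crypt in 3 of 3. Tip minus center was -3.36 on the log2 scale (SE 0.93, limma adjusted p = 0.372), tip minus crypt was -3.72 (SE 1.12, limma adjusted p = 0.9997) and center minus bottom -0.13 (SE 0.93, limma adjusted p = 0.991).

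*Plvap*, which forms the diaphragms of fenestrae, was higher in villus bottom than in villus tip in 5 of 5 mice. Villus bottom held 58.1, 152, 144, 116 and 42.4 ppm in mice 1 to 5. The tip held 6.95, 113, 70.2, 1.87 and 31.2 ppm, so mice 2 and 3 overlapped the range of villus bottom. The log2 difference was -2.03 (SE 0.75, limma adjusted p = 0.575). The exact permutation p was again 0.0625. In the crypt *Plvap* stood at 38.89, 58.7 and 43.3 ppm, below villus bottom in 3 of 3 mice.

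*Kdr*, the main VEGF receptor of endothelium, followed the same order between base and tip. It stood at 7.87, 12.1, 24.7, 64.7 and 10.7 ppm in villus bottom of mice 1 to 5. In villus tip it was 0.61 ppm in mouse 1, listed at 0 in mouse 2, and 18.4, 30.1 and 6.27 ppm in mice 3 to 5. The groups overlapped, and within each mouse the tip was the lower. The log2 difference was -1.67 (SE 0.72, limma adjusted p = 0.613, exact permutation p = 0.0625).

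The junction genes showed no such order. *Pecam1* differed by 0.13 on the log2 scale between tip and bottom (SE 0.36, limma adjusted p = 0.945), with a 95% interval from -0.62 to 0.88. *Cdh5*, the cadherin of endothelial junctions, ran from 0.40 to 19.4 ppm in villus bottom and from 0.15 to 35.1 ppm in villus tip, with medians of 9.81 and 1.69. The tip was lower in 3 of 5 mice, and the log2 difference was -0.66 (SE 1.08, limma adjusted p = 0.889). *Esam*, a tight-junction adhesion molecule, had its highest value in villus center of mouse 1, 80.1 ppm, and was listed at 0 in villus center of mouse 4. The 80.1 ppm was the mean of sections at 159 and 0.91 ppm. Tip minus bottom was -0.04 (SE 1.16, limma adjusted p = 0.997) for *Esam*.

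*Podxl*, a sialomucin of the luminal endothelial surface, had medians of 3.14, 6.43, 2.50 and 8.57 ppm from crypt to tip. At the tip it ran from 0.021 ppm in mouse 1 to 91.1 ppm in mouse 2, and the tip was higher than the bottom in 3 of 5 mice. The 91.1 ppm was the mean of sections at 0 and 182 ppm. The tip value of mouse 3 was likewise the mean of sections at 0 and 40.6 ppm. The difference of *Podxl* from villus bottom was 0.86 (SE 0.98, limma adjusted p = 0.833). *Lyve1*, the hyaluronan receptor of lymphatic vessels, had medians of 5.15, 1.99, 0 and 1.12 ppm from crypt to tip, and it was listed at 0 in villus center of mice 3, 4 and 5 and in villus tip of mice 2 and 5. Mouse 3 held its highest values, 22.9 ppm in the crypt and 23.6 ppm at the tip. Tip minus bottom was -0.46 (SE 0.95, limma adjusted p = 0.915) for *Lyve1*. *Tek*, the angiopoietin receptor, stayed at or under 12.2 ppm. Its highest zone mean was 4.53 ppm, under the filter of 5 ppm, so it had no adjusted p.

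**Figure D2:**
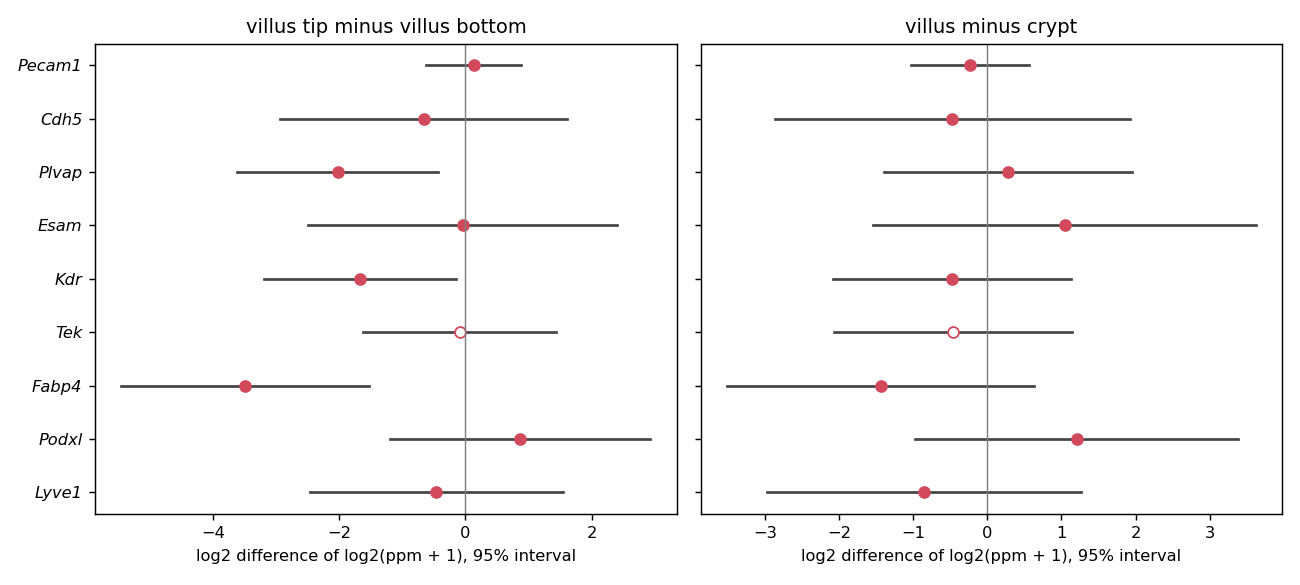
Log2 difference of each endothelial gene (points) with its 95% interval (lines) from limma with the mouse as a block, for villus tip minus villus bottom (left) and villus minus crypt (right). The horizontal axes are differences of log2(ppm + 1), and the open point, *Tek*, comes from the fit without the filter. On the left the intervals of *Fabp4*, *Plvap* and *Kdr* lie below 0 before any adjustment, and on the right all 9 cross 0.

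Of the 9 genes, 8 passed the filter and 0 of these 8 were called by limma in tip against bottom at an adjusted p under 0.05, where 0% of 13535 genes were called. At an unadjusted p under 0.05, limma gave 3 of 8, all lower at the tip, where 7.81% of the 13535 genes passed. The exact permutation test called 0 of 9, since 5 mice cannot reach 0.05. The median log2 difference of the 8 genes was -0.56, beside -0.06 over all genes tested.

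The second comparison, villus (the mean of its 3 zones) against crypt, showed less. Among the 8 tested genes, 0 were called by limma at an adjusted p under 0.05, as were 0% of all genes. At an unadjusted p under 0.05 limma again gave 0 of 8, where 2.69% of all genes passed, and the exact permutation test over 3 mice cannot go below 0.25. *Fabp4* had the largest difference of the 9, -1.44 on the log2 scale (SE 0.98, limma adjusted p = 1). It was lower in the villus in 2 of 3 mice, and the value was -0.21 without mouse 1. *Podxl* was higher in the villus in 3 of 3 mice, by 1.21 on the log2 scale (SE 1.03, limma adjusted p = 1). *Esam* was also higher in 3 of 3, by 1.04 (SE 1.22). *Kdr* and *Lyve1* were lower in 3 of 3, with log2 differences of -0.47 (SE 0.76) and -0.86 (SE 1.00). *Plvap* differed by 0.28 (SE 0.79), and the sign turned when the mouse block was left out (-0.24). The median of the 8 was -0.36, beside -0.08 over all genes tested.

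Over the 6 pairs of zones, 0 genes of the 8 were called by limma in any pair at an adjusted p under 0.05, as were 0% of all genes. At an unadjusted p under 0.05, limma gave *Fabp4* in tip against crypt (1 of 8, where 3.3% of all genes passed) and in tip against center (1 of 8, where 10.3% passed). It gave *Kdr* and *Plvap* in center against bottom (2 of 8, where 8.64% passed), with log2 differences of -1.67 (SE 0.72) and -1.60 (SE 0.75). In center against crypt and bottom against crypt it gave 0 of 8, with 5.64% and 2.73% of all genes.

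Other endothelial genes were listed to set beside these. Of 25, 21 were tested, 15 were lower at the tip than at the bottom, where 52.3% of all genes tested were lower, and 0 were called. Their median log2 difference was -1.10, and limma gave 6 of 21 at an unadjusted p under 0.05, all lower, where 7.81% of all genes passed. The 5 with the highest mean level were *Egfl7*, *Cd34*, *Vwf*, *Fli1* and *Tie1*. *Egfl7*, a secreted factor of vessels, had a median of 196 ppm in villus bottom and 27.3 ppm in villus tip, with a log2 difference of -1.93 (SE 0.81, limma adjusted p = 0.613). *Fli1*, an endothelial and blood transcription factor, differed by -1.91 (SE 0.85, limma adjusted p = 0.618). *Vwf*, the clotting factor stored in endothelium, went the other way, by 0.67 (SE 0.77, limma adjusted p = 0.836), and *Cd34*, a surface sialomucin also made by fibroblasts, differed by 0.31 (SE 0.55). *Tie1*, a receptor kinase related to *Tek*, differed by 0.08 (SE 0.63).

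The lymphatic list had 5 of 6 genes tested, 2 lower and 3 higher at the tip, where 52.3% of all genes tested were lower, and 0 called. At an unadjusted p under 0.05 limma gave 1 of 5, *Ccl21a*, lower at the tip, where 7.81% of all genes passed. *Ccl21a*, the chemokine of lymphatic vessels, had medians of 109, 57.5, 0.34 and 0 ppm from crypt to tip. Its log2 difference, tip minus bottom, was -3.83 (SE 1.08, limma adjusted p = 0.401), and it has near-identical copies between which reads can be split. *Reln*, a secreted glycoprotein of lymphatic endothelium, differed by 0.18 (SE 0.82). *Flt4*, the receptor for VEGF-C, differed by 0.69 (SE 0.69), *Pdpn*, a membrane mucoprotein that fibroblasts share, by 0.67 (SE 1.06) and *Prox1*, the lymphatic transcription factor, by -1.15 (SE 0.69).

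The ligands, receptors and Notch genes that govern vessel growth were split between both directions. Of 21 genes, 15 were tested, 10 were higher and 5 lower at the tip, where 52.3% of all genes tested were lower, and 0 were called. At an unadjusted p under 0.05 limma gave 0 of 15, where 7.81% of all genes passed. The median log2 difference was 0.12, beside -0.06 over all genes tested. *Flt1* and *Tie1* of this list are also on the other endothelial list, and *Flt4* is also on the lymphatic list. *Vegfa*, the ligand of *Kdr*, had the highest mean and differed by -0.31 (SE 0.86, limma adjusted p = 0.945). *Vegfb* differed by 1.45 (SE 0.93, limma adjusted p = 0.713). *Nrp2*, a co-receptor, differed by -0.15 (SE 0.99), and *Efnb2*, an arterial ligand, by 0.11 (SE 0.90).

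Markers of other cells differed between the same zones as well, with 0 genes called at an adjusted p under 0.05. At an unadjusted p under 0.05 limma gave 3 of 5 macrophage, 2 of 4 immune and 1 of 6 fibroblast genes, all lower at the tip, where 7.81% of all genes passed. The macrophage list was lower at the tip for 5 of 5 tested genes, with a median of -2.26, and the immune list for 4 of 4, with a median of -1.58, where 52.3% of all genes tested were lower. The summed macrophage level was 83.9 to 709 ppm in villus bottom and 18.4 to 228 in villus tip. Summed immune genes were 270 to 1702 ppm and 115 to 587 ppm. Fibroblast genes summed to 59.6 to 285 ppm in villus bottom and 51.8 to 430 in villus tip, and 4 of 6 were lower. Mural genes, of the cells that wrap vessels, summed to 25.1 to 95.4 ppm and 9.80 to 80.4 ppm, with 4 of 6 lower. Smooth muscle genes were lower in 3 of 3 tested. Platelet genes summed to 1.02 to 391 ppm in villus bottom and 4.73 to 73.0 in villus tip, red blood cell genes to 0 to 1979 and 25.8 to 864, and adipocyte genes to 32.8 to 87.8 and 48.3 to 127. The epithelial genes were among those removed from the LCM values, and 3 of 5 had a value. Put on the same scale for this sum only, they gave 345 to 2313 ppm and 333 to 2710 ppm. The part of these cells in the values of the 9 genes was not tested.

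**Figure D3:**
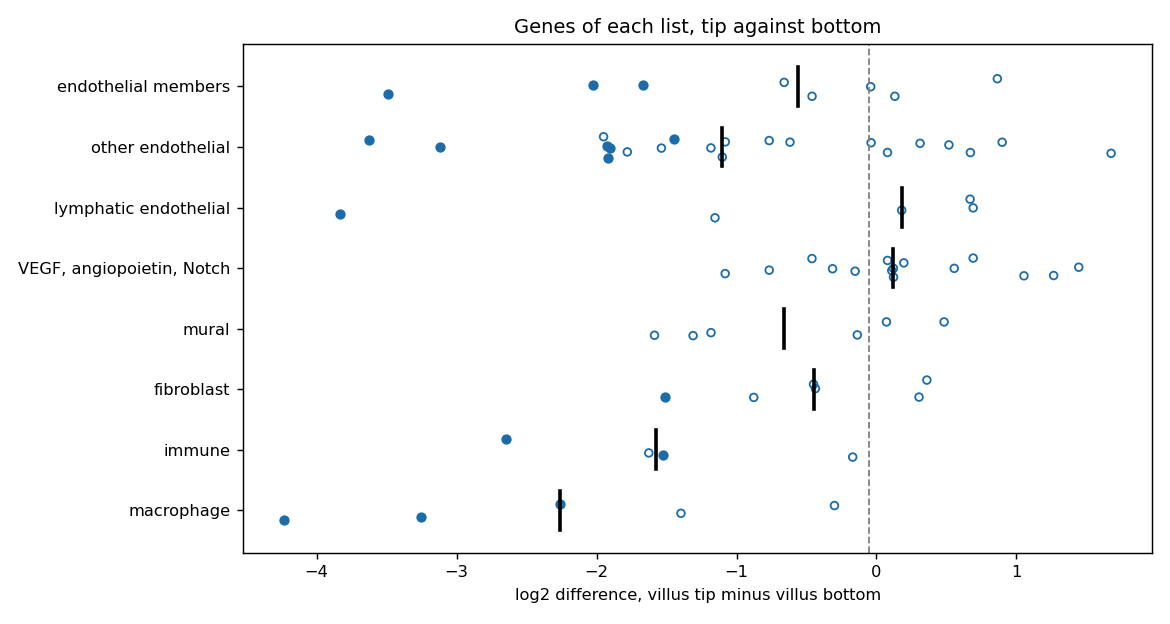
Log2 difference, villus tip minus villus bottom (horizontal axis), for each tested gene of 8 lists (rows). Filled points have an unadjusted limma p under 0.05 (none passes after adjustment), black bars are list medians and the dashed line is the median of all genes, -0.06. The medians of both vascular lists in the top rows lie left of the line, as do those of the mural, fibroblast, immune and macrophage lists. The medians of the lymphatic list and the vessel growth list lie right of it. *Flt1*, *Tie1* and *Flt4* are on the vessel growth list and on another, and are drawn for each.

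Genes outside the list were ranked by their likeness to the mean standardised log2 level of the 9 over the 18 mouse and zone values. The closest were *Fbxl4* (Pearson r = 0.80), *Txndc11* (0.79), *Nepro* (0.78), *Synb* (0.77) and *Cyld* (0.76). These correlations are a description over values that share mice and libraries.

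The single cells ask in which sorted wells these genes are read. Of 12346 wells on 35 plates with labels, 2347 held 400 to 8000 UMIs and at least 250 genes. The 384 well barcodes recur on the plates by design, so barcodes name wells only within a plate. In all, 78 wells had a UMI of any of the 9 genes. EPCAM PDGFRa doublets had 27 of 557 wells (4.85%, exact 95% binomial interval 3.22% to 6.97%) and PDGFRa singlets 45 of 1424 (3.16%, 2.31% to 4.21%). EPCAM singlets, a gate that should lack endothelium, had 3 of 62 (4.84%, 1.009% to 13.5%). Their median depths were 1403, 1232 and 2041 UMIs, and thinned to 400 UMIs the shares were 3.26%, 1.22% and 1.32%. Intervals cover counting error only. The intervals of both gates overlapped that of sorted epithelium, which is wide at 62 wells, and the share alone does not separate these gates from it. The doublet share rested on mouse A, with 26 of 441 wells against 1 of 116 in mouse H (0.862%). Among PDGFRa singlets the share ran from 0 of 243 wells in mouse C to 26 of 545 in mouse G (4.77%).

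The CD31 gate gave no reading of endothelium. Only 9 of its 382 wells passed, and 0 UMIs of the 9 genes were found in them, which allows a share of up to 33.3% of wells with such a UMI and sets no limit on cells that express the genes. Over all 382 wells, with 102160 UMIs, *Lyve1* had 1 UMI and the others 0, including *Pecam1*. The other endothelial list had 5 UMIs over these wells and the epithelial list 308. The data go against the gate's name as far as RNA shows it, and no value of this gate is used below. *Pecam1* was read instead on 1 TripleNeg plate of the same mouse B, in wells too shallow to pass. It had 126 UMIs there, in 90 of 383 wells, at 14.2 per 10000 UMIs, against 0.954 or less on each of the other 34 plates. The other 8 genes had 0 UMIs on that plate, the other endothelial list had 3, and the median well with *Pecam1* held 194.5 UMIs. This plate was singled out after its values were seen. Among wells that passed, PDGFRa Small and TripleNeg also had 0 UMIs of the 9 genes, in 16 and 19 wells, while CD45 singlets (1 *Pecam1* UMI), PDGFRa Big (1 *Pecam1* UMI) and NT5E PDGFRa doublets (1 *Lyve1* UMI) had 1 each in 73, 61 and 126 wells.

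Several of the genes met in the same wells. UMIs of 2 or more of the 9 genes were found in 16 wells, 12 of EPCAM PDGFRa doublets and 4 of PDGFRa singlets. The first 12 lay on 1 plate of mouse A and the other 4 on 1 plate of mouse G, so each set rests on 1 mouse. In EPCAM singlets 0 of 62 wells held a pair, which allows a share of up to 4.84%, above the 2.15% of EPCAM PDGFRa doublets, so a difference was not detectable at this number of wells. Up to 6 of the genes were read in a well. The 16 wells held 137 UMIs of the 9 genes and the other 62 wells with any such UMI held 86.

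*Fabp4* had the most UMIs in these wells, which the 9 genes themselves chose, so their counts are a description. It had 50 UMIs, in 15 of the 16 wells, and *Plvap* had 30, in 10. *Pecam1* and *Podxl* had 17 each, in 9 and 7 wells. *Esam* had 8 UMIs in 6 wells, *Cdh5* 5 in 3 wells, *Kdr* 5 in 5 wells and *Lyve1* 5 in 1 well. *Tek* had 0. All UMIs of *Plvap*, *Cdh5* and *Kdr* in the 2347 wells lay in these 16, while only 37.8% of those of *Pecam1* did. The 12 wells of mouse A held 35 *Fabp4*, 21 *Plvap*, 15 *Pecam1* and 0 *Cdh5* UMIs, and the 4 of mouse G held 15, 9, 2 and 5.

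**Figure D4:**
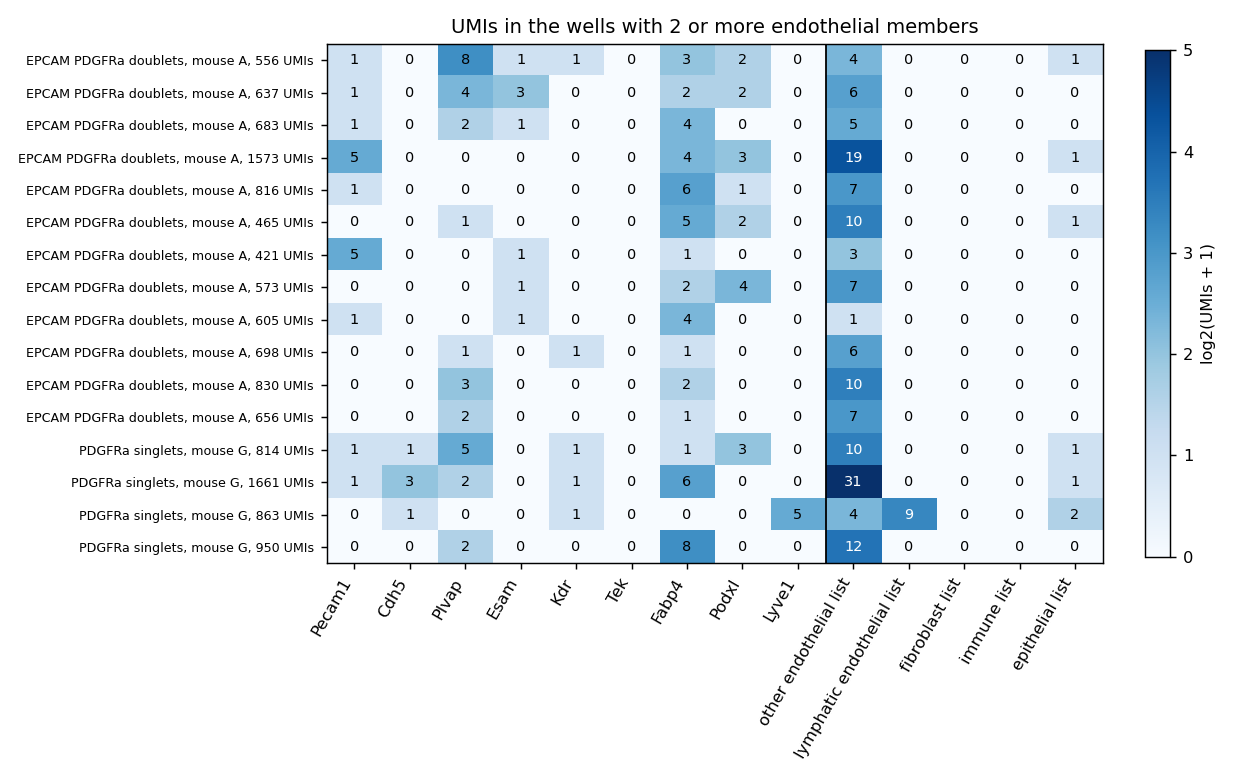
UMIs in each of the 16 wells with 2 or more of the endothelial genes (rows, with gate, mouse and total UMIs), for the 9 genes (left of the line) and the summed UMIs of the marker lists (right of it). Color is log2(UMIs + 1) and the printed numbers are UMIs. The fibroblast and immune columns are 0 in every row, and 1 well of mouse G holds 5 *Lyve1* and 9 lymphatic UMIs.

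Genes that did not choose these wells were read there too. The other endothelial list had UMIs in 16 of 16 wells, at 111 per 10000 UMIs, and in 15.7% of the 2269 wells without any of the 9 genes, at 1.66 per 10000. *Cd34* had 18 UMIs, *Eng* and *Ramp2* 14 each and *Cd93* 12. *Cd34* and *Ramp2* were also found in 156 and 228 other wells, while *Robo4*, *Vwf* and *Flt1* were found in 0 others. The fibroblast list had 0 UMIs in the 16 wells and the immune list 0, against 15.8% and 55.1% of the wells without any of the 9 genes. Vessel growth genes had UMIs in 14 of the 16 wells (87.5%, against 19.4%) and mural genes in 6 (37.5%, against 3.97%). The vessel growth list shares *Flt1* and *Tie1* with the other endothelial list and *Flt4* with the lymphatic list, so these lists are not separate readings. Epithelial genes had a UMI in 6 of the 16 (37.5%) and in 77.3% of the wells without. The 16 wells were shallower, with a median of 690.5 UMIs against 1356. The macrophage, smooth muscle, platelet, red blood cell and adipocyte lists were at 0 in them as well. In wells without any of the 9 genes these lists had UMIs in 0.573%, 5.33%, 23.8%, 0.353% and 9.08%. *Pdgfra*, on whose protein the gates of these 16 wells were sorted, had 0 UMIs in all 16. It was read in 121 of the 2269 wells without any of the 9 genes. *Epcam* had 3 UMIs, in 3 of the 16 wells, and was read in 1190 of the 2269.

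One well of mouse G stood apart. It held 5 *Lyve1* UMIs, 1 of *Cdh5* and 1 of *Kdr*, with 4 of *Ccl21a*, 4 of *Reln* and 1 of *Flt4*, and none of *Plvap*, *Fabp4* or *Pecam1*. The other 15 wells had 0 UMIs of the lymphatic list and 0 of *Lyve1*.

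*Tek* was read elsewhere. All 24 of its UMIs lay in 15 wells with none of the other 8 genes, 12 from PDGFRa singlets of mouse G and 3 from EPCAM PDGFRa doublets of mouse A. Most of the 12 lay on the same plate of mouse G, so the values of the 15 wells rest largely on that plate. Fibroblast genes had UMIs in 15 of these 15 wells, 833 in all, and *Pdgfra* in 6. Epithelial and immune genes had 0 UMIs in the 15. The other endothelial list, which holds genes such as *Cd34* that fibroblasts share, had UMIs in 12 of the 15 and the lymphatic list in 5. In wells without any of the 9 genes 15.8% had a fibroblast UMI, 15.7% one of the other endothelial list and 2.42% one of the lymphatic list. These 15 wells were described after their values were seen.

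*Lyve1* and *Pecam1* were also read alone. *Lyve1* alone was read in 10 wells with a median of 2726.5 UMIs. Epithelial UMIs were in 10 of these, immune UMIs in 7, other endothelial UMIs in 3 and fibroblast UMIs in 0. *Pecam1* alone was read in 22 wells of 6 mice, with epithelial UMIs in 14, immune and other endothelial UMIs in 8 each, and fibroblast and platelet UMIs in 4 each. In wells without any of the 9 genes the shares were 77.3% for epithelial, 55.1% for immune, 15.7% for other endothelial, 15.8% for fibroblast and 23.8% for platelet genes, at a median of 1356 UMIs. *Fabp4* alone was read in 8 wells and *Podxl* alone in 4, and *Esam* alone in 3.

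The mock epithelium gave the same 2 genes. Its 4 samples held 748458 to 4210158 UMIs. *Pecam1* had 29, 13, 16 and 12 UMIs, or 20.04, 17.4, 3.80 and 3.23 per 1000000 UMIs. *Lyve1* had 6, 6, 9 and 7 UMIs, or 4.15, 8.02, 2.14 and 1.88 per 1000000 UMIs. Per 1000000 UMIs, samples 1 and 2 were above samples 3 and 4 in *Pecam1* and in *Lyve1*. *Esam* had 8 UMIs over the 4 samples, *Plvap* 4 and *Fabp4* 1, while *Cdh5*, *Kdr*, *Tek* and *Podxl* had 0. *Pecam1* made up 63.1% of the 9 genes' UMIs and *Lyve1* 25.2%.

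Set side by side, the share of *Pecam1* in the summed level of the 9 genes was 81.8% in the crypt and 93.7% in villus tip as a mean over mice, 63.1% in mock epithelium and 12.4% in the 16 wells. *Fabp4* made up 36.5% and *Plvap* 21.9% of the UMIs in these wells, and 1.84% and 1.79% of the summed ppm in villus tip. The LCM level is per transcript length on full transcripts and the UMIs are counts of transcript ends, so the shares differ in scale as well as in the cells, and the difference was not tested.

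**Figure D5:**
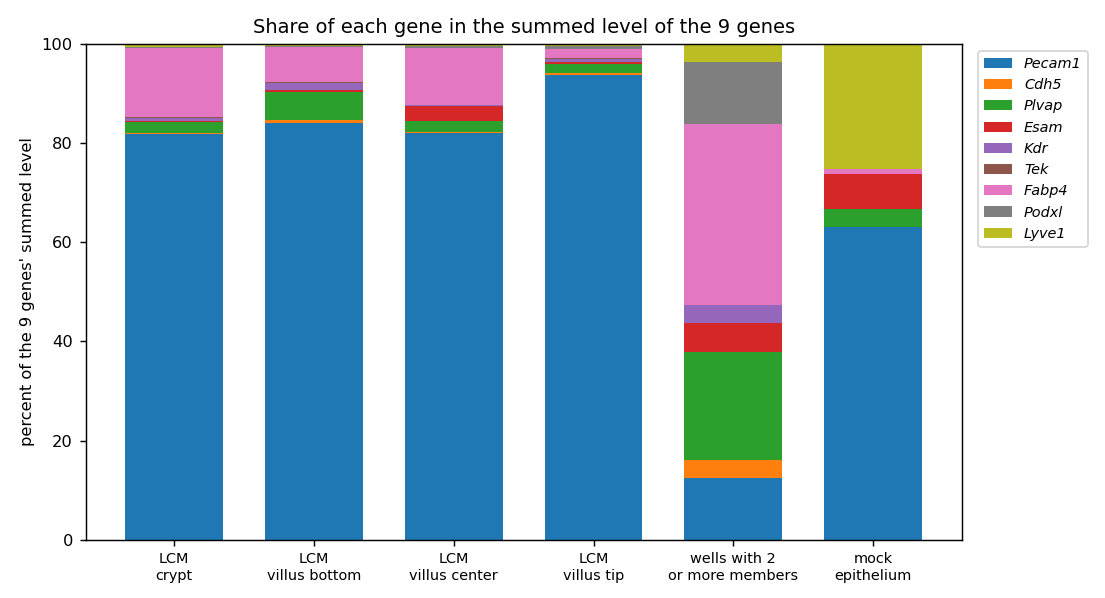
Share of each gene in the summed level of the 9 endothelial genes (vertical axis, percent), as a mean over 3 or 5 mice of ppm in the 4 LCM zones, and as pooled UMIs in the 16 wells with 2 or more of the genes and in the 4 mock epithelium samples. *Pecam1* fills 81.8% to 93.7% of the LCM bars and 12.4% of the bar of the 16 wells.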

How the data were processed

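The authors pseudoaligned LCM reads with kallisto to coding transcripts of GRCm38 and deposited TPM values per gene and section. Per the labels, sorted cells and epithelium were deposited as raw UMI counts per gene, made with zUMIs on GRCm38. From the LCM values 378 genes high in mock epithelium were removed (the study took its enterocyte genes from another data set, not used here), samples were rescaled to the sum of genes each under 1% of a sample, and sections were averaged per mouse and zone. Genes with a zone mean above 5 ppm (13535) were compared on log2(ppm + 1) with limma 3.58.1, with the mouse as a block and Benjamini-Hochberg adjustment, which understates changes of low genes. The mouse pairs the zones, because they came from the same animal. Deviations from zone means correlated from -0.07 to 0.47 (median 0.19) within a mouse, over 24 pairs. Between mice they correlated from -0.41 to 0.35 (median -0.05), over 96 pairs, so the ranges overlapped. In simulated data of 13535 genes with 200 raised at the tip, the tip against bottom fit recovered 30.5% at a log2 shift of 3 and 95% at 6. Losses were not simulated, so these shares do not cover low genes that fall at the tip.

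A plate of 352 wells that matched no sample was not used. The background of empty wells was not subtracted. Doublets were not called, because several gates collected them on purpose. The toxin-treated epithelium was not used here. The named genes are the 9, the genes of fixed lists with the 5 highest means, the 5 most alike and, per gate, the gene with most UMIs. The genes and lists were chosen with earlier results of these data known. Alternatives were other pseudocounts, no filter, deposited TPM, averaging after the logarithm, no block, leaving out mice, other well limits and thinning.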

Additional observations from a re-analysis of the deposited data

Results flagged for a closer look

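Of 36 groups of 4 or 5 samples checked for a value far from the others, 8 had one, in each case the highest. Chance gives about 1 in 20 for values with a normal spread. Levels were checked without a logarithm and many lay near 0, so the number of groups cannot be set against that rate. *Cdh5*, *Kdr*, *Tek* and *Podxl* in mock epithelium, at 0 in every sample, could not have one. *Cdh5* in villus center was 26.8 ppm in mouse 4 and at most 1.61 in the others. *Esam* in villus bottom was 32.3 ppm in mouse 3 and at most 5.13 in the others. *Fabp4* in villus tip was 134 ppm in mouse 3, against 2.54 to 10.5 in the other 4 mice. Without mouse 3 the difference of *Fabp4*, tip minus bottom, was -4.16 on the log2 scale. *Podxl* was 24.3 ppm in villus center of mouse 3, against at most 3.99, and 91.1 ppm in villus tip of mouse 2, against at most 20.3. The 91.1 ppm was the mean of sections at 0 and 182 ppm. *Lyve1* was 12.2 ppm in villus center of mouse 1, against at most 2.07, and 23.6 ppm in villus tip of mouse 3, against at most 2.60. In mock epithelium *Fabp4* had its only UMI in sample 3, at 0.238 per 1000000 UMIs. Mouse 3 thus holds 4 of the 7 values in the LCM zones.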

How the results depend on the processing

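The counts of the endothelial genes called stayed at 0 under all 35 alternatives run for tip against bottom, villus against crypt and the 6 zone pairs, including the fit with no replicate block, though the exact permutation test among them could not give a call. Of all genes, limma called 5 in tip against bottom without mouse 4, 1 in center against bottom without mouse 2, and with no filter 2 in villus against crypt and 1 each in center and tip against crypt. With no replicate block, limma gave 1 of the 3 genes at an unadjusted p under 0.05 in tip against bottom, *Fabp4*. *Fabp4*, *Plvap* and *Kdr* kept their direction in tip against bottom under all 12 alternatives each, from -4.16 to -2.42, -2.43 to -1.19 and -2.54 to -0.69. With no block, villus minus crypt turned to -0.24 for *Plvap* and 0.036 for *Kdr*. Averaging after the logarithm turned *Esam* in tip against bottom to 0.0029. Leaving out mice gave *Fabp4* in villus minus crypt -2.34 to -0.21 (the latter without mouse 1), *Plvap* -0.25 to 1.16, and in tip against bottom *Pecam1* -0.021 to 0.37, *Cdh5* -1.996 to 0.21, *Esam* -0.35 to 0.18, *Podxl* -0.26 to 1.80 and *Lyve1* -0.82 to 0.25. The sign turned for *Plvap* without mouse 2 or 3, for *Pecam1* and *Podxl* without mouse 2, for *Cdh5* without mouse 1, for *Esam* without mouse 3 or 5 and for *Lyve1* without mouse 5. The cause was not tested.

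The share of PDGFRa singlets with any of the genes was 1.22% when thinned. The count of 16 wells with 2 or more of the genes was 26 at 200 to 8000 UMIs and 100 or more genes, 16 with no upper limit and 13.2 when thinned. Leaving out a mouse of a gate gave 4 to 16, and 4 without mouse A in EPCAM PDGFRa doublets. Chosen after seeing the data, leaving out the plate of mouse A gave 4 and that of mouse G 12. The LCM depth is unknown, and 0 UMIs in a few shallow wells limit little.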
